A study of Mus musculus with 2 samples.

Results

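The hexosamine synthesis enzymes are the 5 genes whose products turn fructose 6-phosphate into UDP-N-acetylglucosamine: Gfpt1 (ENSMUSG00000029992) and its paralog Gfpt2 (ENSMUSG00000020363), Gnpnat1 (ENSMUSG00000037722), Pgm3 (ENSMUSG00000056131) and Uap1 (ENSMUSG00000026670). They were taken by gene symbol, and all 5 were found among the 34097 genes listed for both libraries. The study measured single-cell RNA with the 10x Genomics platform in 2 mouse lung cancer xenografts grown, per the labels, from LLC, the Lewis lung carcinoma line. One tumour was a control and the other carried a short hairpin RNA (shRNA) against Gfpt2 and is named the knockdown below; the labels give no hairpin sequence, mouse strain or age. The stated question was the effect of the knockdown on the immune environment of the tumour and on signalling among its cells. With 1 library per group there is no replicate check, so every difference is between these 2 libraries and carries no p-value.

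The hexosamine pathway branches off glycolysis. GFPT, its rate-limiting enzyme, moves an amino group from glutamine to fructose 6-phosphate, and the mammalian genome holds 2 genes for it, the widely expressed Gfpt1 and the more restricted Gfpt2. GNPNAT1 then acetylates glucosamine 6-phosphate, PGM3 moves the phosphate to the first carbon, and UAP1 joins the sugar to uridine diphosphate. UDP-N-acetylglucosamine feeds N-glycans, hyaluronan and the O-GlcNAc mark on nuclear and cytosolic proteins. In textbook accounts the unfolded protein response, through XBP1, raises the transcription of Gfpt1 and other enzymes of the route.

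Promoters were compared for letters that such responses are known to read. They are shown because Gfpt1 and Gfpt2 are paralogs and Uap1 has the highest count of the 5. RefSeq promoters (GRCm38.p6) were matched for 4 of the 5 genes: Gfpt1, Gfpt2, Pgm3 and Uap1. The 250 bases before the annotated start were read 5′ to 3′ on the gene's strand, and capitals mark a pair of motifs on either strand. The first is CCACG, the part of the endoplasmic reticulum stress element that ATF6 and XBP1 bind. The second is ACGTG, which stands in the core of hypoxia and unfolded protein response elements and can overlap the first.
Gfpt1, chr6:87042596-87042845, plus strand: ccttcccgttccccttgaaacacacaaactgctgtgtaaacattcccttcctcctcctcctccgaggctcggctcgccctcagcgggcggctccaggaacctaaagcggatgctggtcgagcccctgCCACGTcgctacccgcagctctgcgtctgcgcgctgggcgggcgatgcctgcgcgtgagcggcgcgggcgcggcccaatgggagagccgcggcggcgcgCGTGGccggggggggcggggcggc
Gfpt2, chr11:49793905-49794154, plus strand: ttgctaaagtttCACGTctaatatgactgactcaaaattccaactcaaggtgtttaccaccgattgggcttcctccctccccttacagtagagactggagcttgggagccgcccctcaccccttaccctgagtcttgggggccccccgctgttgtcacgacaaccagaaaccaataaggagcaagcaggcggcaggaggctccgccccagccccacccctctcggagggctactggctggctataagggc
Uap1, chr1:170174965-170175214, minus strand: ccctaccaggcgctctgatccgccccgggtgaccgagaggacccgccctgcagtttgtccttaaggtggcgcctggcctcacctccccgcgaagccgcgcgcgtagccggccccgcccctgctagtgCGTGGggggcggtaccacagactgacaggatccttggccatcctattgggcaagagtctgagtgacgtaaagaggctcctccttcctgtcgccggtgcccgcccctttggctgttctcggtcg
The Gfpt1 window held CCACG at 2 places, 1 of them overlapping ACGTG, the Uap1 window held CCACG once and the Gfpt2 window held ACGTG once. The Pgm3 window (chr9:86571843-86572092, minus strand) held neither set of letters. Of 32851 promoters of the same length, 28.3% held CCACG and 16.6% held ACGTG, so a match is common. The Gfpt2 window was poorer in CpG than the other three, with 8 CpG and 57.6% G or C, against 32 CpG and 72.0% for Gfpt1, 28 CpG and 71.6% for Pgm3 and 22 CpG and 67.2% for Uap1. The median promoter had 6 CpG and 52.4%. GGGCGG, the letters that Sp1 reads, stood 4 times in the Gfpt1 window, 2 times in that of Gfpt2 and 5 times each in those of Pgm3 and Uap1, counting both strands, and 32.7% of all promoters held it. A match describes letters in a window and not a site in use.

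The control library held 11977 cells and 165824226 UMIs (unique molecular identifiers, 1 per captured RNA molecule), and the knockdown library 12853 cells and 138402860 UMIs. After filters 10662 and 11450 cells were kept. Classes were gated on raw UMIs. Tumour-like cells had no Ptprc UMI (CD45, the leukocyte antigen), less than 5 Lyz2 UMIs per 10000 and at least 5000 UMIs. They numbered 4986 without and 5211 with the knockdown, with median depths of 18744 and 14667 UMIs. Macrophages (at least 10 UMIs of C1qa, C1qb and C1qc per 10000) numbered 3990 and 4556, with 5379.5 and 3953.5 UMIs, and T cells (at least 2 UMIs of Cd3d, Cd3e and Cd3g) 786 and 676, with 2784 and 2688.5 UMIs. Of all barcodes, 37 occurred in both libraries. A level is the UMIs of a gene in counts per 1000000 UMIs of the class (CPM), and brackets give exact 95% intervals that cover counting error only.

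The gates were read against markers they did not use. The 7 macrophage markers summed to 2730 and 2344 CPM in macrophages, control first, against 22.2 and 25.9 CPM in tumour-like cells. The 7 T cell markers summed to 1831 and 2148 CPM in T cells and to 4.44 and 6.07 CPM in tumour-like cells. Tumour-like cells held Hmga2, an oncofetal chromatin gene, at 220 and 218 CPM, while the epithelial genes Krt8, Krt18 and Epcam were all under 0.1 CPM there and the keratin Krt7 was at 1.10 and 0.992 CPM. They also carried fibroblast-type genes, 2521 and 2830 CPM over 8 genes. That sum was mostly Col3a1 (1410 and 1643 CPM) and Dcn (1027 and 1076 CPM). Pdgfra, Pdgfrb and Col1a1 lay between 18.4 and 51.4 CPM. Lum was at 0.695 and 0.696, Fap at 0.502 and 0.730 and Acta2 at 1.35 and 3.86 CPM. Xist was at 2.88 and 3.99 CPM in tumour-like cells against 394 to 493 CPM in macrophages and T cells. RNA of genes high in tumour-like cells, called tumour RNA below, was present in the other gates and not evenly between libraries. Whether all of it came from tumour cells was not tested. Hmga2 was at 32.8 and 88.2 CPM in macrophages and at 111 and 92.7 CPM in T cells, control first. Over the 8 fibroblast genes, macrophages held 300.0 and 824 CPM, control first, and T cells 1054 and 868 CPM. Endothelial, neutrophil, NK, dendritic and erythrocyte lists each summed to under 24 CPM in tumour-like cells, with Siglech, a plasmacytoid dendritic cell gene, at 0 in the control library. Of these, the 5 neutrophil markers summed to 2.23 and 0.662 CPM there, control first, and the 4 erythrocyte markers to 6.32 and 23.6 CPM; their part in the library ratios was not tested. The 3 NK cell markers summed to 84.3 and 112 CPM in the T cell gate.

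Gfpt2, the target of the shRNA and the check of the labels, was the rarest of the enzymes and the one that differed most between the libraries. Tumour-like cells held 212 Gfpt2 UMIs in the control library, 2.05 CPM (1.78 to 2.34), and 57 with the knockdown, 0.650 CPM (0.492 to 0.842). Its level was thus 3.15-fold lower with the knockdown, or -1.65 as a log2 ratio (-2.10 to -1.23). At least 2-fold apart either way were 3.58% and at least 2-fold lower 1.1% of the 16854 genes with 20 or more UMIs in tumour-like cells, and Gfpt2 was the 1 member among them; 2.48% of the genes were at least 2-fold higher, with no member. Macrophages held 2 Gfpt2 UMIs without and 8 with the knockdown, or 0.0843 CPM (0.0102 to 0.304) and 0.372 CPM (0.161 to 0.733), too few for a direction. Of 8 Gfpt2 UMIs in control T cells, 6 lay in 1 cell among 15 that also passed the tumour-like gate, and the other 771 T cells held 2. Knockdown T cells held 1.

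Few cells carried Gfpt2 at all. A Gfpt2 UMI was seen in 128 tumour-like cells of the control library, 2.57% (2.15 to 3.04), and in 49 of the knockdown library, 0.940% (0.696 to 1.24). The share was 0.0501% and 0.176% in macrophages, at a lower depth; whether those UMIs came from free RNA, doublets or the cells themselves was not tested. With every cell thinned to 5000 UMIs the shares in tumour-like cells were 0.822% (0.591 to 1.11) and 0.345% (0.205 to 0.545). At 2000 UMIs they were 0.501% and 0.134%, against 0.0295% and 0.0840% in macrophages and 0 of 555 and 0 of 445 T cells. Control tumour-like cells were thus above macrophages at equal depth, whereas in the knockdown library the intervals of both classes overlapped (0.0540 to 0.277 and 0.0173 to 0.245). Cells with 2 or more Gfpt2 UMIs numbered 47 without and 7 with the knockdown, and the highest cells held 6 and 3.

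Gfpt2 in the control library was concentrated in cells carrying Krt16 and Klk8, a stress keratin and a secreted serine protease. Like the other marker pairs below, this pair was chosen with earlier results of these data known. Levels in such cells are therefore a description and not a test. The 150 cells with at least 5 UMIs of this pair per 10000, 3.01% of the tumour-like cells, held 101 Gfpt2 UMIs, or 47.6% of the total. Their level was 27.1 CPM (22.03 to 32.9) against 1.11 CPM (0.914 to 1.34) in the other tumour-like cells, a 24.3-fold difference with a log2 ratio of 4.61, which was 5.32 with the gate at 3 per 10000. At least 2-fold higher in this subset were 9.34% of the genes tested in the control library. The knockdown library had 22 such cells, 0.422% of its tumour-like cells, with 2 Gfpt2 UMIs, 5.41 CPM (0.656 to 19.6). Inside the subset the library ratio was -2.32 (-5.39 to -0.43) on the log2 scale. Without these cells the levels were 1.11 and 0.630 CPM, a log2 ratio of -0.82 (-1.31 to -0.34), and with the gate lowered to 3 per 10000 the ratio was -0.18. Among cells with no Krt16 or Klk8 UMI, 4401 control cells held 55 Gfpt2 UMIs and 4955 knockdown cells held 50, or 0.614 and 0.606 CPM, a log2 ratio of -0.02 (-0.60 to 0.56). The last 2 settings were chosen after the data were seen. In cells with no Lyz2 or Xist UMI the ratio was -2.55. In the summed class, fewer such cells and less Gfpt2 RNA per cell cannot be told apart.

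The same concentration was seen outside the gates. Among 1048 control cells that passed no gate, 28 carried Krt16 and Klk8 at the same threshold and held 17 of the 29 Gfpt2 UMIs, 47.5 CPM, against 1.41 CPM in the other 1020. In the knockdown library 5 of 1185 such cells carried the pair, with 0 Gfpt2 UMIs, and the others held 3. A second, smaller group stood out in the control library: 53 cells carrying Csmd3 and Robo2, long genes expressed in neurons, held 19 Gfpt2 UMIs, 24.6 CPM (14.8 to 38.4). Of these, 8 UMIs came from 4 of the 8 cells that carried Krt16 and Klk8 too, and the other 11 came from 3 cells. In that subset 18.0% of genes were at least 2-fold higher, so a high ratio was common there. The 74 such knockdown cells held 1 Gfpt2 UMI. Cells outside the collagen subset (under 5 UMIs of Col1a1 and Col3a1 per 10000) held 2.97 and 0.402 CPM, control first, a log2 ratio of -2.89 (-3.92 to -2.00), and collagen-carrying cells 1.32 and 0.763 CPM, a ratio of -0.79 (-1.35 to -0.25). Of the 150 control Krt16 and Klk8 cells, 11 carried collagen at that threshold.

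Gfpt1, the other amidotransferase, was at nearly one level in both libraries. Tumour-like cells held 30.9 CPM (29.8 to 31.9) without and 31.6 CPM (30.4 to 32.8) with the knockdown, a log2 ratio of 0.03 (-0.04 to 0.11). Macrophages held 35.95 CPM (33.6 to 38.4) and 36.2 CPM (33.7 to 38.8), a ratio of 0.01 (-0.13 to 0.15), so the class levels lay close together and macrophages were the higher. T cells held 27.6 CPM (22.8 to 33.2) from 115 UMIs and 36.8 CPM (30.3 to 44.3) from 112 UMIs, a ratio of 0.41 (0.03 to 0.80), which was 0.00 without the filters on cells and between 0.23 and 0.53 in the other 6 settings tried. Of the genes with 20 or more UMIs, 9.83% in macrophages and 2.98% in T cells were at least 2-fold apart either way, and none of the 4 members that reached 20 UMIs there was. Gfpt2 gave 6.22% (5.43 to 7.08) of the UMIs of both paralogs in control tumour-like cells and 2.02% (1.53 to 2.61) in knockdown ones. In the control Krt16 and Klk8 subset the paralogs were near parity, 111 Gfpt1 and 101 Gfpt2 UMIs. Gfpt1 there was 29.7 CPM against 30.9 CPM in the other tumour-like cells, a log2 ratio of -0.06 (-0.34 to 0.22). In the 22 knockdown cells it was 13.5 CPM, from 5 UMIs, against 31.7 CPM, a ratio of -1.23 (-2.85 to -0.00). The control subset was also lower in Gnpnat1, by a ratio of -0.34 (-0.57 to -0.12), and in Pgm3, by -0.48 (-0.88 to -0.10). These shares compare captured molecules, and capture per gene was not measured.

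**Figure D1:**
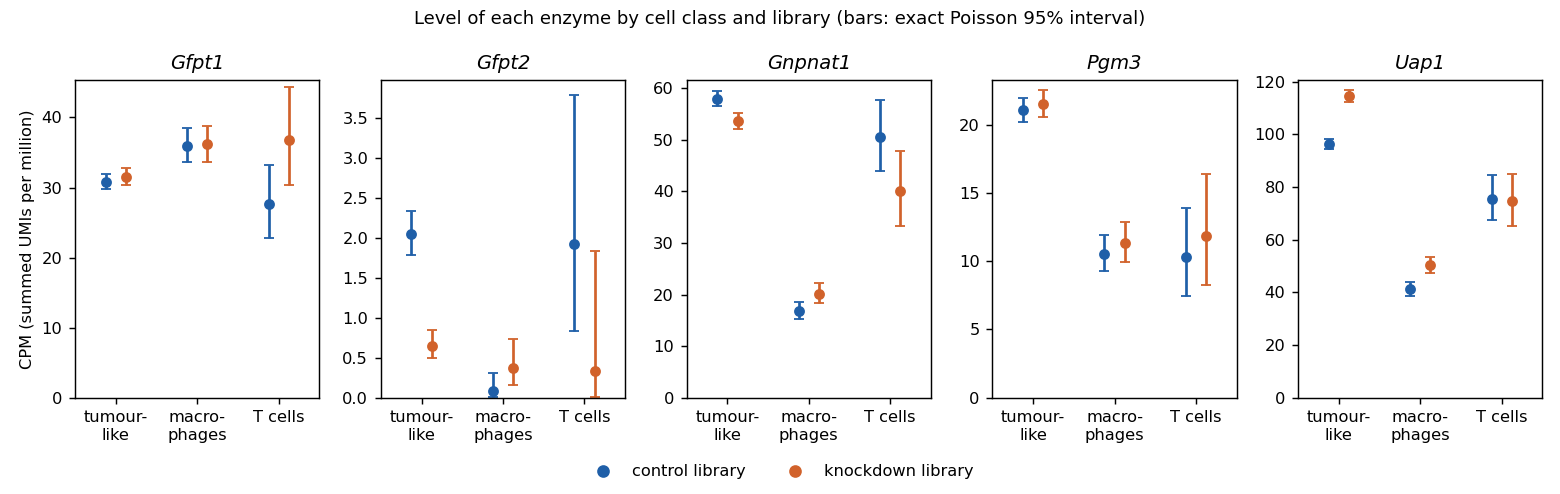
Level of each enzyme (CPM, linear axis from 0, a scale of its own per gene) in tumour-like cells, macrophages and T cells; blue is the control and orange the knockdown library, and bars are exact Poisson 95% intervals. Gfpt2 in tumour-like cells lies at 2.05 and 0.650 CPM, Uap1 at 96.5 and 114.6 CPM, and the Gfpt1 points of tumour-like cells and macrophages lie between 30.9 and 36.2 CPM.

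Gnpnat1, the acetyltransferase, differed between the classes, above all in the low level of macrophages. It was at 57.9 CPM (56.5 to 59.4) in control and 53.6 CPM (52.1 to 55.2) in knockdown tumour-like cells, and at 16.8 CPM (15.2 to 18.5) and 20.2 CPM (18.3 to 22.2) in macrophages. With tumour RNA included, tumour-like cells were 3.45-fold above macrophages in the control and 2.66-fold in the knockdown library. T cells were at 50.4 CPM (43.8 to 57.7) and 40.1 CPM (33.3 to 47.9), near tumour-like cells, in a gate that held tumour RNA. The library ratios pointed both ways: -0.11 (-0.17 to -0.06) in tumour-like cells, 0.27 (0.07 to 0.47) in macrophages and -0.33 (-0.66 to -0.00) in T cells. Depth and tumour RNA moved with these small ratios. Gnpnat1 was higher in deeper control tumour-like cells, from 44.9 CPM in the lowest to 65.4 CPM in the highest tertile of total UMIs, and the control cells were the deeper ones. In cells of 10000 to 20000 UMIs, 2155 and 2496 cells, the levels were 49.5 and 51.6 CPM, a log2 ratio of 0.06 (-0.04 to 0.16), at median depths of 14966 and 14312 UMIs. With every cell thinned to 5000 UMIs it was -0.06. In cells with no UMI of Hmga2, Dcn or Col3a1 the ratio was -0.24 (-0.64 to 0.16) in macrophages and 0.00 (-0.67 to 0.67) in T cells. Gnpnat1 was there at 13.1 and 11.1 CPM in macrophages, control first, lower than in the whole gate. In T cells it was at 31.6 and 31.7 CPM, from 44 and 37 UMIs, and so below tumour-like cells.

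Pgm3, the mutase, was the least abundant enzyme after Gfpt2 and did not differ between the libraries beyond counting error in any class. Its levels were 21.0 CPM (20.2 to 21.9) and 21.5 CPM (20.6 to 22.5) in tumour-like cells, 10.5 and 11.3 CPM in macrophages and 10.3 and 11.8 CPM in T cells. The log2 ratios were 0.03 (-0.06 to 0.12), 0.11 (-0.15 to 0.37) and 0.20 (-0.48 to 0.87). Tumour-like cells were above macrophages by 2.00-fold in the control and 1.90-fold in the knockdown library.

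Uap1, the last enzyme, had the highest count of the 5 and was higher in the knockdown library. Tumour-like cells held 10002 Uap1 UMIs without the knockdown, 96.5 CPM (94.6 to 98.4), and 10046 with it, 114.6 CPM (112.4 to 116.9), a log2 ratio of 0.25 (0.21 to 0.29), or 1.19-fold. The ratio was 0.27 (0.21 to 0.33) in cells of 10000 to 20000 UMIs and 0.28 (0.24 to 0.32) outside the Krt16 and Klk8 subset. Macrophages held 41.3 CPM (38.7 to 43.9) and 50.4 CPM (47.5 to 53.5), a ratio of 0.29 (0.16 to 0.42). That macrophage ratio turned to -0.16 (-0.39 to 0.07) in the 2158 and 2023 macrophages with no UMI of Hmga2, Dcn or Col3a1, where Uap1 was 37.4 and 33.5 CPM, a setting chosen after the data were seen. T cells held 75.7 and 74.6 CPM, a ratio of -0.02 (-0.27 to 0.23). In T cells without those UMIs Uap1 was 58.9 and 53.1 CPM, still above the macrophages without them. Gfpt2 gave 0 and 1 UMIs in the macrophages without tumour RNA and 0 of 468 and 0 of 412 such T cells, which at the limit of 3 counts allows shares of up to 0.641% and 0.728% of cells with a UMI at median depths of 2508 and 2316 UMIs.

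**Figure D2:**
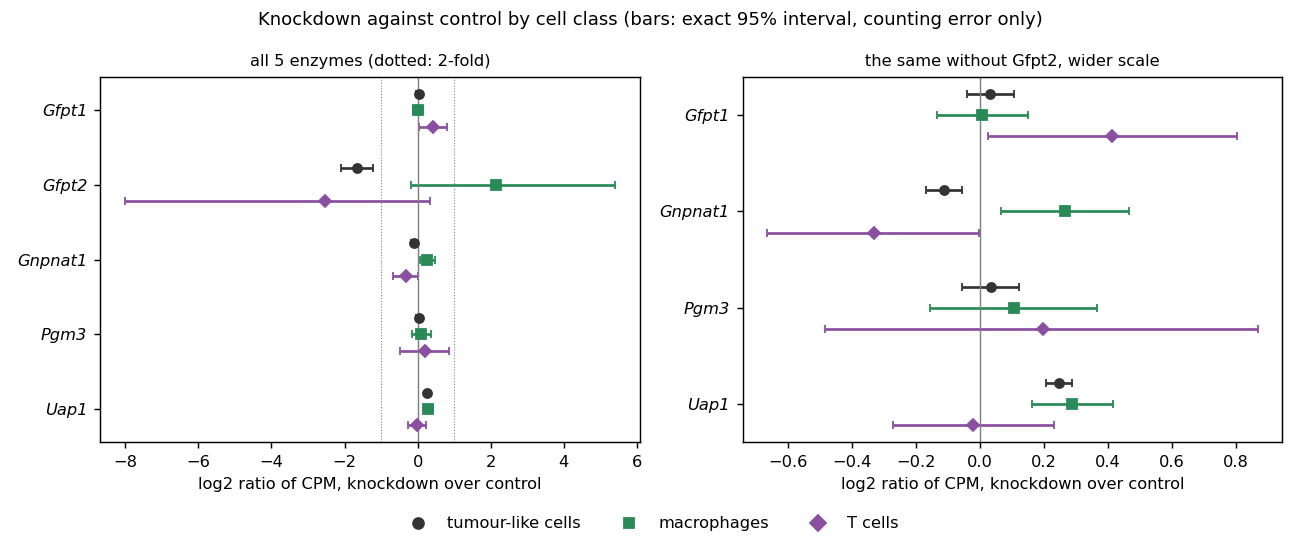
Log2 ratio of CPM, knockdown over control, for each enzyme (rows) in tumour-like cells (black circles), macrophages (green squares) and T cells (purple diamonds); bars are exact 95% intervals from counting error, and the right panel leaves out Gfpt2 to widen the scale. Gfpt2 in tumour-like cells stands at -1.65, past the dotted 2-fold line, while the 12 ratios in the right panel lie between -0.33 and 0.41.

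In both libraries the order of the levels in tumour-like cells was Uap1, Gnpnat1, Gfpt1, Pgm3 and Gfpt2, with no overlap of counting intervals between neighbours. In macrophages Gfpt1 stood between Uap1 and Gnpnat1, and its interval overlapped neither in either library. The gap to Uap1 was not seen in macrophages with no UMI of Hmga2, Dcn or Col3a1. Gfpt1 and Uap1 were there at 36.4 and 37.4 CPM without and 32.6 and 33.5 CPM with the knockdown. These orders are of captured molecule ends, which are not scaled by transcript length. With tumour-like cells thinned to 5000 UMIs, 39.6% of control and 38.9% of knockdown cells held no UMI of any enzyme and none of the cells held all 5, so most cells could not be read for the whole route. Thinned Uap1 was seen in 33.0% (31.7 to 34.3) of control and 35.2% (33.9 to 36.5) of knockdown cells, Gnpnat1 in 22.1% and 21.8%, Gfpt1 in 14.8% and 15.2% and Pgm3 in 10.5% and 10.1%. Without thinning the shares were 71.5% and 67.6%, 57.04% and 50.7%, 43.7% and 38.6%, and 33.6% and 28.7%, lower in the shallower library. Among 41 control cells with a thinned Gfpt2 UMI, 23 had a Uap1 UMI, 56.1% (39.7 to 71.5), against 32.8% (31.5 to 34.1) of the others. In the knockdown library it was 7 of 18, 38.9% (17.3 to 64.3), against 35.1%. For the control cells with a Gfpt2 UMI, Gfpt1, Gnpnat1 and Pgm3 were seen in 17.1%, 17.1% and 14.6%. The other control cells had 14.7%, 22.2% and 10.5%, with intervals that overlapped. The part of the Krt16 and Klk8 cells in the Uap1 share was not tested.

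Uap1 also differed between kinds of tumour-like cell. Cells carrying Cryab and Krt14, a small heat shock protein and a basal keratin, held 222 CPM (208 to 237) of Uap1 without and 187 CPM (176 to 198) with the knockdown. The other tumour-like cells held 91.5 and 109 CPM, so the log2 ratios of subset over the rest were 1.28 (1.18 to 1.38) and 0.78 (0.69 to 0.87). In the control library 3.0% of genes, and with the knockdown 2.18%, were at least 2-fold higher in this subset, and Uap1 passed that fold in the control library alone. The subset made up 184 cells, 3.69%, of the control and 344 cells, 6.60%, of the knockdown tumour-like cells. Between libraries Uap1 was lower inside it, at -0.25 (-0.38 to -0.12), and higher outside it, at 0.25 (0.21 to 0.30). Inside it Pgm3 was 15.05 CPM (11.48 to 19.4) without and 27.6 CPM (23.6 to 32.0) with the knockdown, a log2 ratio of 0.87 (0.44 to 1.32), and Gfpt1 23.6 and 32.5 CPM, a ratio of 0.46 (0.10 to 0.83). Pgm3 in the subset over the rest was -0.50 (-0.89 to -0.13) without and 0.39 (0.15 to 0.61) with the knockdown, or -0.27 and 0.15 with the gate at 3 per 10000.

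In the control Krt16 and Klk8 cells Uap1 was 159.6 CPM (147 to 173) against 94.2 CPM in the others, and in the 22 knockdown cells 105.6 CPM (75.1 to 144) against 114.6 CPM. The knockdown contrast of Uap1 depended on the gate, with a log2 ratio of -0.12 (-0.61 to 0.33) at 5 and 1.32 at 3 UMIs of the pair per 10000. Proliferating cells, those carrying Mki67 and Top2a, held less Uap1, 82.4 against 101 CPM without and 85.8 against 126 CPM with the knockdown. Their Gfpt2 was 2.98 against 1.72 CPM in the control library, a log2 ratio of 0.79 (0.37 to 1.20). That ratio was 0.41 with the gate at 3 per 10000. Of those 988 cells, 54 also carried Krt16 and Klk8. With the knockdown Gfpt2 was 0.678 against 0.639 CPM, a ratio of 0.09 (-0.82 to 0.94). Collagen-carrying cells held more Gfpt1, by 0.46 (0.36 to 0.57) and 0.43 (0.31 to 0.56) on the log2 scale, and less Gnpnat1, by ratios of -0.53 (-0.60 to -0.46) and -0.29 (-0.37 to -0.20). Cells carrying Tnnt2 and Tafa5 differed from the rest by less than the counting interval for each of the 5 enzymes in both libraries where a ratio could be formed. Gfpt2 had 0 UMIs in the 36 knockdown cells of that subset, which allows up to 4.56 CPM at the limit of 3 counts set for a count of 0.

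**Figure D3:**
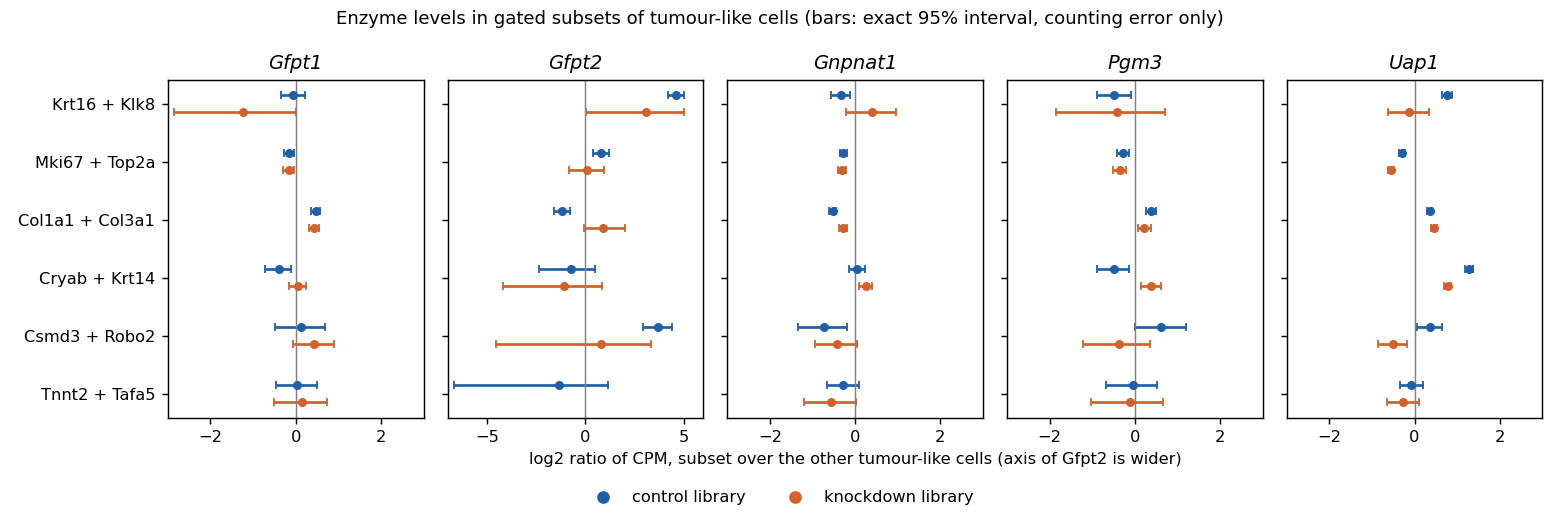
Log2 ratio of CPM of each enzyme in 6 subsets of tumour-like cells over the remaining tumour-like cells, with the control library in blue and the knockdown library in orange; bars are exact 95% intervals from counting error and the Gfpt2 axis is wider. Gfpt2 stands at 4.61 in the control Krt16 and Klk8 cells and Uap1 at 1.28 and 0.78 in the Cryab and Krt14 cells; no point is drawn for Gfpt2 in the knockdown Tnnt2 and Tafa5 cells, where no UMI was found.

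Tumour-like cells were also split into 3 equal ranges of a summed gene list. Over the 12 cell cycle genes, Uap1 went from 136 CPM in the lowest to 77.4 CPM in the highest tertile of the control library, a log2 ratio of -0.82 (-0.88 to -0.75). With the knockdown it went from 171 to 84.9 CPM, or -1.01 (-1.08 to -0.95). Gfpt1 and Pgm3 were lower there as well, with ratios of -0.42 and -0.47 for Gfpt1 and -0.46 and -0.46 for Pgm3. Gnpnat1 differed in sign, 0.22 (0.12 to 0.31) without and -0.26 (-0.36 to -0.16) with the knockdown. That sign depended on how cycling cells were taken. In the Mki67 and Top2a cells Gnpnat1 was below the rest in both libraries, at -0.27 (-0.36 to -0.19) and -0.31 (-0.41 to -0.21). With the gate at 3 per 10000 it was at -0.0225 in the control library, outside that interval, and at -0.273 with the knockdown. Between the tertiles Gfpt2 was at -0.36 (-0.83 to 0.11) and -0.13 (-1.09 to 0.85). Its control sign thus also differed from that in the Mki67 and Top2a cells. Depth moved with this list: median UMIs were 15453 in the lowest and 25630.5 in the highest control tertile, and the depth tertiles alone gave Uap1 ratios of -0.34 and -0.20 and Gfpt1 ratios of -0.49 and -0.56. The part of depth in the cell cycle ratios was not tested.

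Along 12 genes of the unfolded protein response, such as the chaperone Hspa5 and the factor Xbp1, 4 of the 5 enzymes were higher in the highest than in the lowest tertile, with an interval above 0 in both libraries. The same held for 30.8% of all genes with 20 or more UMIs without and 16.6% with the knockdown, so such a difference was common. Gfpt1 was 25.9 CPM in the lowest and 37.0 CPM in the highest control tertile and 28.7 and 36.6 CPM in the knockdown library, ratios of 0.52 (0.39 to 0.64) and 0.35 (0.22 to 0.48). Pgm3 had ratios of 0.45 (0.29 to 0.60) and 0.38 (0.21 to 0.54). Gnpnat1 had 0.17 and 0.30 and Uap1 0.23 and 0.23, each with an interval above 0. Gfpt2 was at -0.07 (-0.58 to 0.44) and -0.37 (-1.34 to 0.57), intervals that hold the Gnpnat1 and Uap1 ratios, so a difference from those enzymes was not detectable at this depth. Median depth differed less here, 19221.5 and 17545 UMIs in the lowest and highest control tertiles. Between libraries 0 of the 12 genes were at least 2-fold apart in tumour-like cells, beside 3.58% of all genes, and their median log2 ratio was 0.24, from 0.01 to 0.49, beside 0.05 over all genes tested. The median of the list was 0.23 in macrophages and 0.22 in T cells, where the medians over all genes tested were 0.13 and 0.07.

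Along 12 genes of glycolysis and hypoxia, such as Ldha and Vegfa (13 identifiers, since Aldoa has 2), Uap1 was higher at the top in both libraries. It went from 81.8 to 114 CPM without and from 101 to 133 CPM with the knockdown, ratios of 0.48 (0.40 to 0.55) and 0.39 (0.32 to 0.46). Gfpt1 was lower at the top of this list, by ratios of -0.25 and -0.25, and Gfpt2 showed no difference beyond counting error, -0.21 (-0.74 to 0.32) and 0.16 (-0.87 to 1.22). Pgm3 was at -0.33 (-0.48 to -0.17) and -0.03 (-0.19 to 0.13), and Gnpnat1 at 0.06 (-0.03 to 0.15) without and 0.36 (0.25 to 0.46) with the knockdown. Depth moved with this list too, from median UMIs of 16241 in the lowest to 20428.5 in the highest control tertile and from 12401 to 16338 with the knockdown, and its part in these ratios was not tested.

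**Figure D4:**
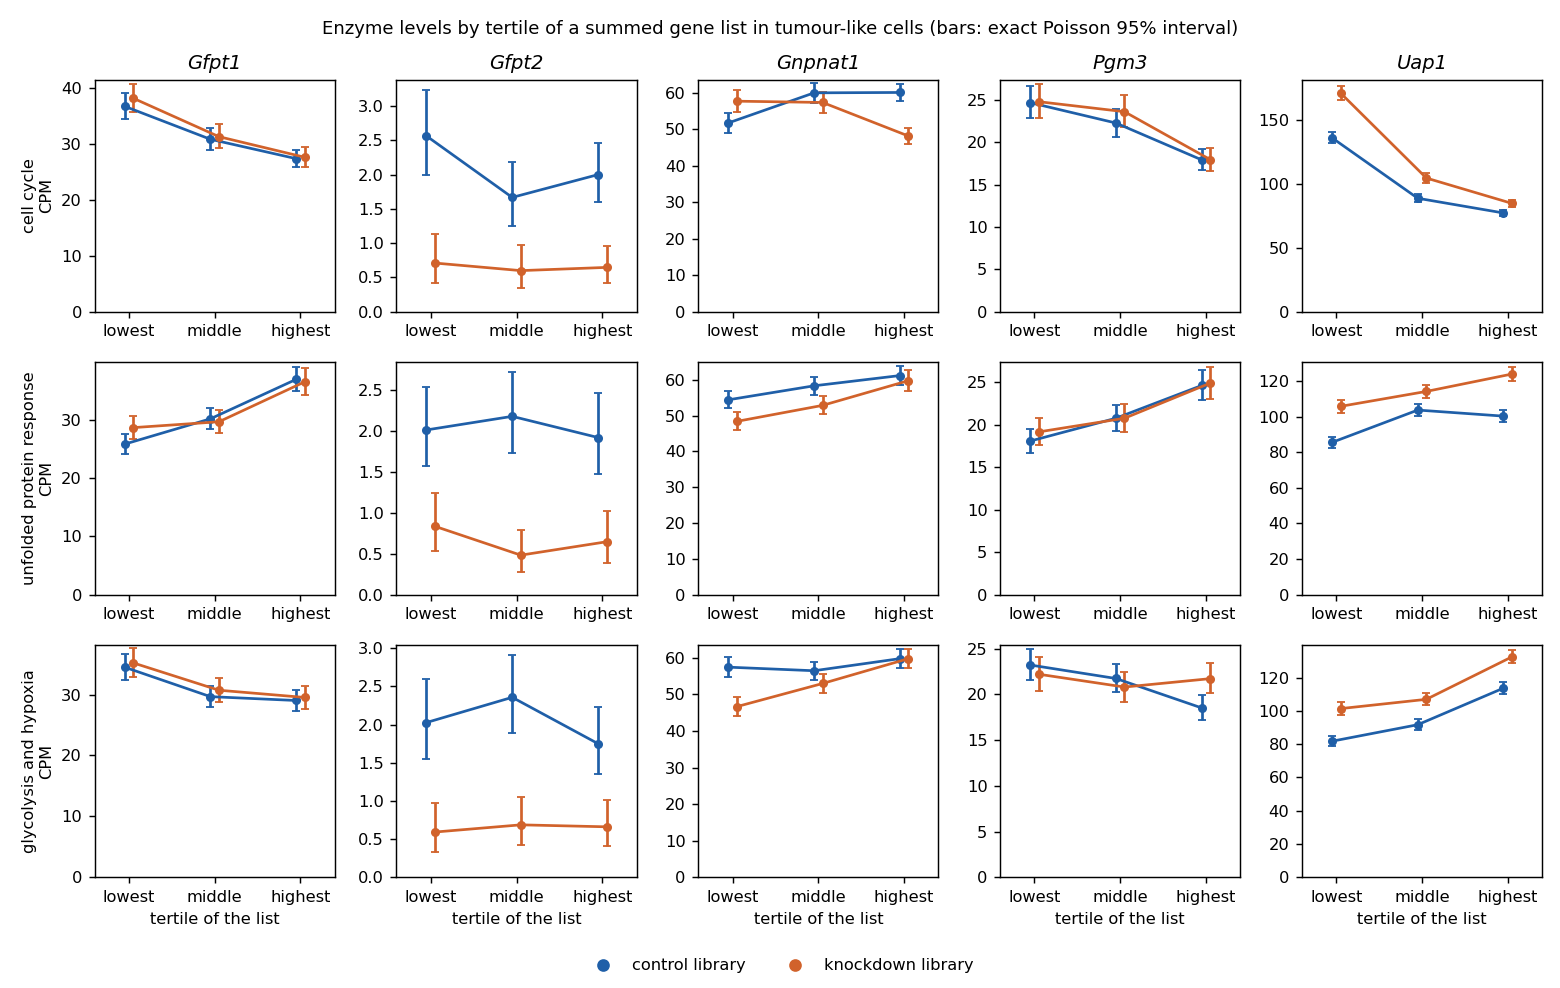
CPM of each enzyme (columns) in the lowest, middle and highest tertile of 3 summed lists (rows: cell cycle, unfolded protein response, glycolysis and hypoxia) in tumour-like cells, control in blue and knockdown in orange, with exact Poisson 95% intervals and axes from 0. Uap1 goes from 136 to 77.4 CPM along the cell cycle list in the control library, Gfpt1 from 25.9 to 37.0 CPM along the unfolded protein response list, and Gfpt2 shows no trend along the latter beyond its intervals.

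The other genes of the route were read from a list of 20 that supply it, return sugars to it or use its product. In tumour-like cells 20 of 20 were measured and none was at least 2-fold apart, beside 3.58% of all genes, which is no result about so short a list. The median log2 ratio was 0.02, from -0.24 for Gnpda2, which returns glucosamine 6-phosphate to glycolysis, to 0.39 for Has2, a hyaluronan synthase. Among the 3 most abundant by count were Gpi1, the glucose phosphate isomerase, at 420 and 418 CPM, and Ogt, which adds O-GlcNAc to proteins, at 79.2 and 79.2 CPM. In macrophages 1 of 20 was higher, Has2 at 3.37 and 13.7 CPM, beside 8.96% of all genes and beside the larger tumour RNA there; its part in that value was not tested. In T cells none of 20 was 2-fold apart, beside 2.98% of all genes, and the median was 0.13. In the control Krt16 and Klk8 cells 2 of the 20 were at least 2-fold higher, a share near the 9.34% of all genes there and so no result about the list. They were Has2 at 81.4 CPM against 26.3 CPM, and Uap1l1, a paralog of Uap1, at 119 CPM against 52.4 CPM, with ratios of 1.63 (1.45 to 1.80) and 1.19 (1.04 to 1.33) on the log2 scale. In the 22 knockdown cells the ratios were 0.75 (0.09 to 1.34) for Has2 and 0.11 (-0.57 to 0.71) for Uap1l1. In the Cryab and Krt14 cells of the control library Has2 was lower, 13.0 CPM against 28.9 CPM, a ratio of -1.15 (-1.57 to -0.75), and with the knockdown -0.76 (-1.01 to -0.51).

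The genes most like each enzyme were sought over tumour-like cells among 12258 genes, by Pearson r of log(1 + UMIs per 10000), as a description in cells that share a library and differ in depth. For Gfpt2 they were Apba2 (r = 0.41), Arhgap6 (0.40), Klk8 (0.35), Sparcl1 (0.34) and Cdh19 (0.33) over the 4986 control cells; Klk8 defines the gate above. Between 55.2% and 71.6% of the UMIs of these 5 genes lay in the Krt16 and Klk8 subset, and over the 5211 knockdown cells their r lay between -0.01 and 0.05. For Uap1 they were Ly6c1 (0.29 without and 0.29 with the knockdown), Sema3c (0.27 and 0.35) and Ly6a (0.25 and 0.26), which held in both libraries. For Gnpnat1 they were Ciapin1 (0.28 and 0.14), Gadd45a (0.28 and 0.16) and Cyb5r1 (0.27 and 0.18). For Gfpt1 (Ttc3, Trps1 and Nedd4) and Pgm3 (Arl1, Kdelr2 and Copb2) r was at most 0.14, too weak in such sparse counts to read. Between the enzymes themselves r lay between -0.03 and 0.09 in both libraries.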

How the data were processed

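Single-cell RNA was measured in 2 mouse tumour libraries, 1 control and 1 knockdown, so groups were compared without tests. The authors deposited raw UMI counts (whole numbers, genes by cells) from Cell Ranger, version 6.1.0 per the file headers and 3.1.0 per the submitters' processing notes; the genome build is not given in the sources used here. Cells with under 200 genes (34 control, 19 knockdown) or over 20% mitochondrial UMIs (164 and 72) were left out, then the highest Scrublet scores at 0.8% per 1000 cells (1148 and 1322 cells; scanpy 1.11.5). UMIs were summed per class. Levels are CPM with exact Poisson intervals, shares have exact Clopper-Pearson intervals, and ratios have exact conditional binomial intervals. Counts of genes past 2-fold used genes with at least 20 UMIs over both libraries. Thinning drew a fixed number of UMIs per cell without replacement, and at 2000 UMIs 605 and 984 macrophages and 231 and 231 T cells were too shallow. A cell passing several gates counted in each. The members, gene lists, marker pairs and tests were chosen with earlier results of these data known. Named genes were the members, pathway genes at least 2-fold apart or among the 3 most abundant, and the 5 genes most like Gfpt2 or 3 most like each other enzyme. One of the 3 most abundant pathway genes is not reported here. The ratio and likeness scripts were tested on simulated data.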

Additional observations from a re-analysis of the deposited data

Results flagged for a closer look

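Gnpnat1 had library ratios of opposite sign in different cell classes: -0.111354 on the log2 scale in tumour-like cells, 0.265971 in macrophages and -0.33049 in T cells, knockdown over control. With 1 library per group the difference between classes was not tested. All 3 values moved toward or past 0 in tumour-like cells of 10000 to 20000 UMIs and in immune cells without tumour RNA, whereas tumour-like cells thinned to 5000 UMIs stayed below 0 at -0.0637, and the part of depth and tumour RNA in the opposite signs was not tested.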

How the results depend on the processing

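No paired analysis was possible because each group has 1 library and the labels carry no replicate numbers. Of 126 recomputed library ratios 103 stayed within the counting interval of the reported value, 22 moved outside it and 1, of a value past 2-fold, reversed; 27 of the 126 had the opposite sign to the reported value. Of 59 contrasts of a subset with the other tumour-like cells, 52 stayed within it, 6 moved and 1, also past 2-fold, reversed with the gate at 3 per 10000, and 5 had the opposite sign. In tumour-like cells Gfpt2 was -2.55 in cells with no Lyz2 or Xist UMI, -0.82 without the Krt16 and Klk8 subset, -0.18 without cells at 3 per 10000 of the pair and -0.0209 without any cell holding a UMI of it. Gnpnat1 was -0.0309 in cells with no Lyz2 or Xist UMI. Cells of 10000 to 20000 UMIs gave -0.0751 for Gfpt1, 0.0600 for Gnpnat1 and -0.0667 for Pgm3. Median-of-ratios scaling gave 0.21 for Uap1. In macrophages, dropping the filters on cells and doublets gave -1.18 for Gfpt2, from a few UMIs, 0.0548 for Gnpnat1 and 0.14 for Uap1; weighting cells equally gave -0.25 for Gfpt1 and 0.16 for Uap1; C1q of at least 30 per 10000 gave 0.15 for Uap1. Macrophages with no Hmga2, Dcn or Col3a1 UMI gave -0.16 for Gfpt1, -0.24 for Gnpnat1 and -0.16 for Uap1. Scrublet's own threshold (1089 and 2808 cells called) gave -0.37 for Gnpnat1, -0.24 for Pgm3 and -0.0781 for Uap1. In T cells Gfpt1 was 0.00443 without filters and Gnpnat1 0.0042 in cells without tumour RNA. Gfpt2 in the control Tnnt2 and Tafa5 cells, from 1 UMI, was 0.12 over the others with the gate at 3 per 10000. With a minimum of 100 UMIs, 1.1%, 6.24% and 0.527% of genes were at least 2-fold apart in tumour-like cells, macrophages and T cells. The macrophage signs of Gfpt1, Gnpnat1, Pgm3 and Uap1 and the size of the Gfpt2 difference changed with the cells taken in. For Gfpt1 in macrophages, at 0.00827 in the main setting, 6 of 7 alternatives had the opposite sign. The cause was not tested beyond these values. Added after the data were seen were 5 settings: depth bands, cells without tumour RNA, the last 2 of the Krt16 and Klk8 settings and Scrublet's threshold.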
